A study of Mus musculus with 9 samples.

Results

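The small leucine-rich proteoglycans are secreted proteins built around a curved stretch of leucine-rich repeats, and most of them carry sugar chains of the chondroitin, dermatan or keratan sulfate type. They sit on collagen fibrils in the matrix of bone, cartilage and tendon, where they limit fibril width and spacing, and several bind growth factors such as TGF-beta. The family is divided into classes by sequence and gene structure, and neighbouring genes of a cluster on 1 chromosome often belong to different classes. The 10 genes described here are those that were listed by name as family members of the skeletal matrix: Dcn, Bgn and Aspn of class I, Fmod, Lum, Prelp and Omd of class II, Epyc and Ogn of class III, and Chad of class IV. All 10 were among the 43472 genes of the deposited count table, and all 10 passed the filter on low counts that left 14257 genes for testing.

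The study sequenced RNA of 3 mouse skeletal tissues, all of strain C57BL/6J. The groups were bone, named Bone and made up of osteoblasts per the labels, mature cartilage, named MatC and made up of mature chondrocytes, and immature cartilage, named ImC and made up of immature chondrocytes. Each group had 3 libraries. The labels name no treatment, genotype or transgene, and they state neither the skeletal element nor whether the libraries of a group came from different animals. The p-values therefore speak only of variation among the sequenced libraries, which may be technical. RNA was isolated from very small inputs, copied by 1 round of linear amplification and sequenced with a kit that does not mark strand. Values are given as CPM, the reads of a gene relative to the library total, after scaling by trimmed mean of M-values (TMM). A gene was called where edgeR's quasi-likelihood test gave a Benjamini-Hochberg adjusted p, taken over all 14257 genes, under 0.05, and every adjusted p given here comes from that test unless another tool is named.

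The libraries held 7913684 to 23159547 counted reads. Of the defining markers, Ibsp and Col10a1 followed the labels, and some others did so less clearly or not at all. Ibsp, an osteoblast matrix gene, had 16294 to 20079 CPM in Bone, 185 to 5943 CPM in MatC and 6.70 to 16.3 CPM in ImC. Col10a1, the collagen of hypertrophic cartilage, had 0.845 to 2.48 CPM in Bone, 817 to 4760 CPM in MatC and 0.427 to 0.750 CPM in ImC. Col2a1, the main cartilage collagen, was present in all 3 tissues, with 297 to 682 CPM in Bone, 4769 to 8400 CPM in MatC and 8402 to 9782 CPM in ImC. It thus set Bone apart from both cartilages, while MatC and ImC nearly met. Of 11 osteoblast markers, 8 did not overlap between Bone and MatC, against 35.6% of all tested genes, counted in either direction. All 8 lay above MatC in Bone, and 0 of the 11 were called higher (1.36% of all tested genes). Spp1, 1 of the 11, had 1853, 49.1 and 54.7 CPM in Bone and 66.9, 1834 and 644 CPM in MatC. Comp, a listed marker of immature chondrocytes, had 751, 487 and 1999 CPM in MatC and 209, 127 and 415 CPM in ImC. Of 11 such markers, 2 were lower in MatC than in ImC (2.29% of all tested genes). The other 9 were not called, and 0 were higher (5.41% of all tested genes). The 11 summed to 9688 to 23843 CPM in MatC and 14517 to 19853 CPM in ImC, so this list did not separate the 2 cartilages. Erythroid markers summed to 6439 to 9212 CPM in Bone, 874 to 3505 CPM in MatC and 9.75 to 1424 CPM in ImC. Mitochondrially encoded genes took 8.01 ± 0.84% of counts in Bone, 61.7 ± 25.1% in MatC and 44.1 ± 11.6% in ImC (SD, n = 3 each). In the third MatC library, 82.3% of counts were mitochondrial and 14940 genes were detected, against at least 17535 in every other library, and 3 reads were worth 0.849 CPM there, against at most 0.257 CPM elsewhere. Spearman correlations between replicates were 0.974 to 0.982 in Bone, 0.850 to 0.917 in MatC and 0.842 to 0.959 in ImC, across genes.

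Together the 10 genes had 693, 1189 and 1162 CPM in the Bone libraries, 1788, 1110 and 1884 CPM in the MatC libraries, and 1261, 1712 and 589 CPM in the ImC libraries. These sums overlapped between all 3 tissues, whereas the genes that made them up differed. By group mean, Dcn and Omd were highest in Bone, Lum, Aspn and Ogn in MatC, and Fmod and Chad in ImC. Prelp and Epyc were high in both cartilages and near 0 in Bone. Between Bone and MatC, the differences of Omd, Lum, Aspn and Ogn were not called. The MatC means of Aspn and Ogn rested on the first MatC library. Of 30 tests, 1 for each gene and pair of tissues, 14 were called, and they involved 8 of the 10 genes. Bgn and Lum were called in none. In bulk RNA, fewer cells of a type and less RNA per cell cannot be told apart.

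**Figure D1:**
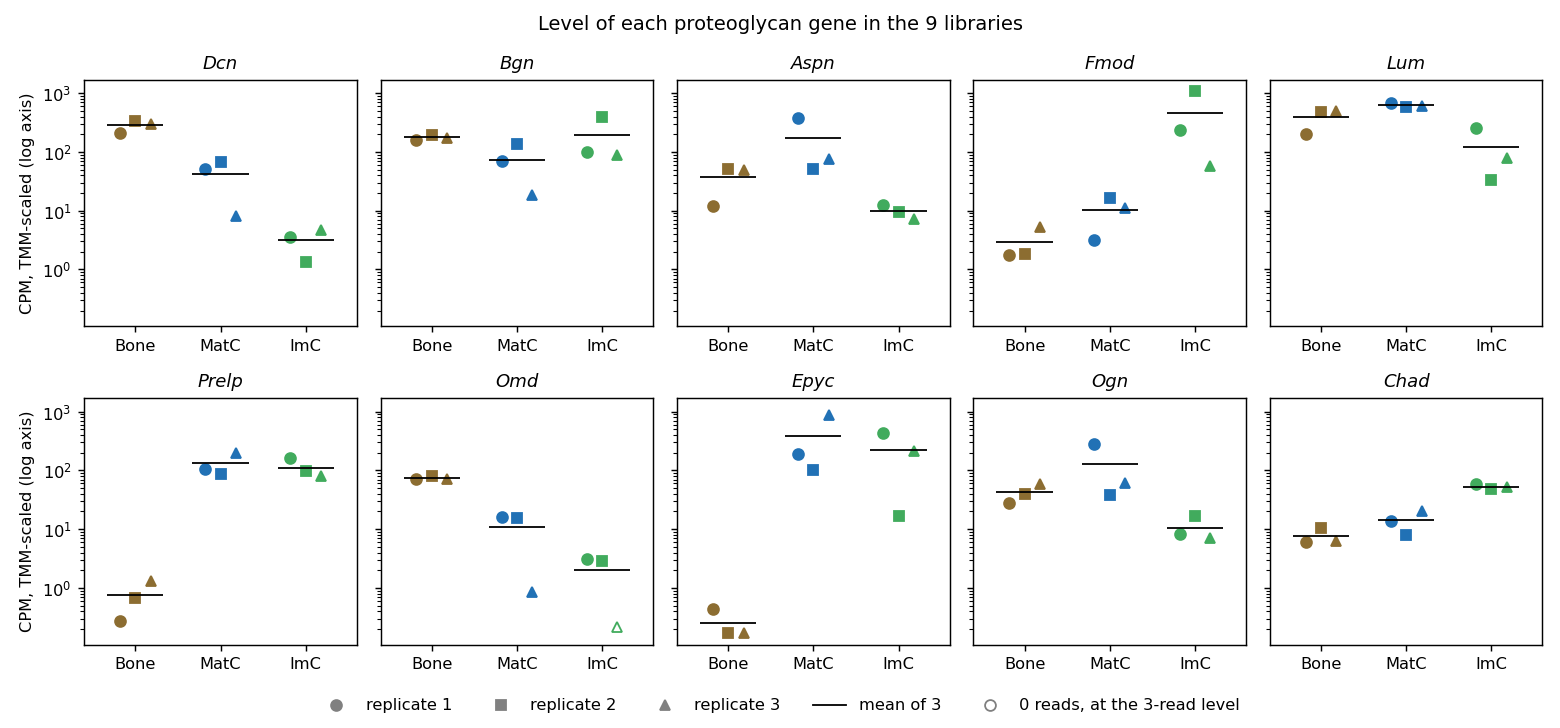
Level of each gene in the 9 libraries in TMM-scaled CPM on a log axis, with Bone, MatC and ImC from left to right; each point is 1 library, horizontal lines are means of 3, and the open point is a library with no read drawn at the level of 3 reads. Dcn runs from 212 CPM or more in Bone to 4.77 CPM or less in ImC, and Prelp and Epyc lie at 1.30 CPM or less in every Bone library.

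Between MatC and ImC, the comparison of cartilage at 2 stages of maturation, 3 of the 10 genes were higher in MatC (Dcn, Ogn and Aspn), against 5.41% of all tested genes, and 2 were lower (Fmod and Chad), against 2.29% of all tested genes. The groups did not overlap for 6 of the 10, against 23.9% of all tested genes, the sixth being Lum. The median log2 fold change was 1.59 over the 10 genes and 0.03 over all tested genes. Between Bone and MatC, the comparison of osteoblasts with mature chondrocytes, 1 gene was higher in Bone (Dcn), against 1.36% of all tested genes, and 2 were lower (Prelp and Epyc), against 4.69%. The groups did not overlap for 6 of the 10, against 35.6% of all tested genes, and the medians were -1.24 over the 10 genes and -0.03 over all. Between Bone and ImC, 2 genes were higher in Bone (Dcn and Omd), against 14.3% of all tested genes, and 4 were lower (Fmod, Prelp, Epyc and Chad), against 16.8%. The groups did not overlap for 7 of the 10, against 59.0% of all tested genes, and the medians were 0.77 over the 10 genes and -0.02 over all. The 3 comparisons share samples in pairs, so their counts are not independent of each other.

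**Figure D2:**
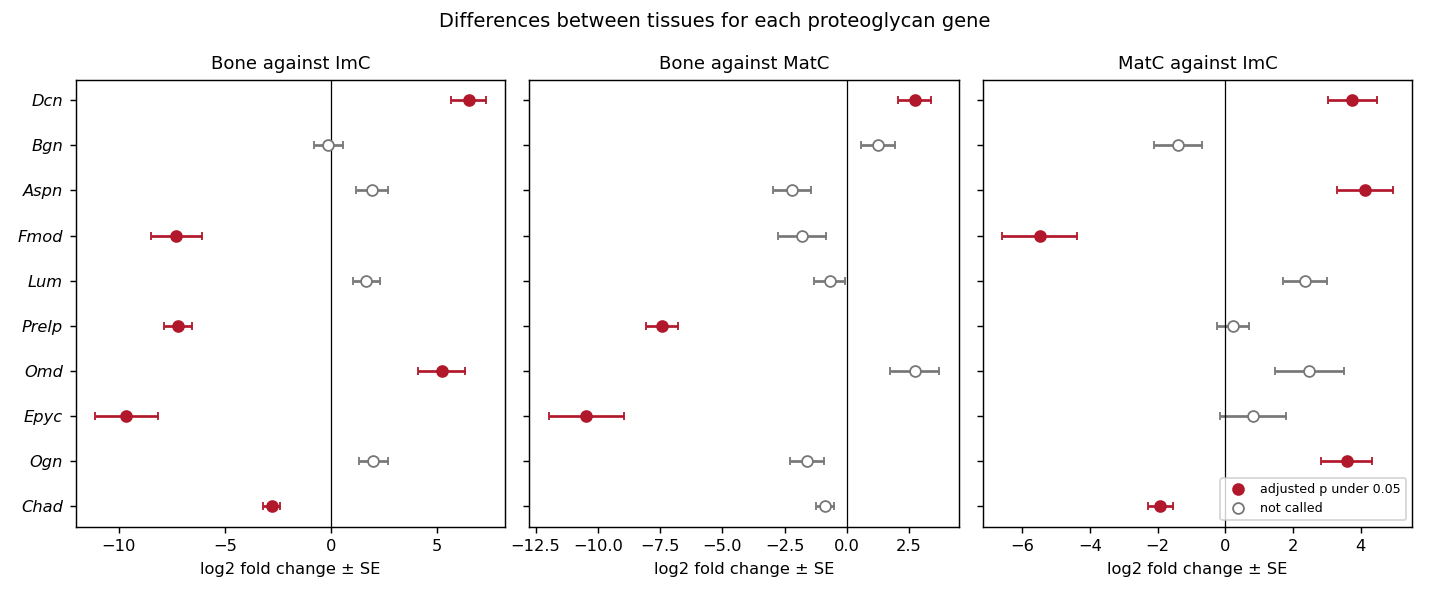
Log2 fold change with its SE for each gene (rows) in Bone against ImC, Bone against MatC and MatC against ImC (panels, each with its own x axis); filled points had an adjusted p under 0.05. Positive values mean higher in the first tissue named, and the lowest points are those of Epyc, at -9.64 in Bone against ImC and -10.46 in Bone against MatC.

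Among the class I genes, Dcn (ENSMUSG00000019929) encodes decorin, which binds collagen fibrils and TGF-beta and carries a chondroitin or dermatan sulfate chain. Dcn had 212, 338 and 299.7 CPM in Bone, 51.8, 67.5 and 8.20 CPM in MatC, and 3.50, 1.34 and 4.77 CPM in ImC. All Bone libraries lay above all MatC libraries and all MatC libraries above all ImC libraries, with the third MatC library closest to ImC. Dcn was higher in Bone than in ImC by 6.48 ± 0.81 on the log2 scale (SE; adjusted p = 0.000617), and this call held in each of the 18 alternative settings tried. It was also higher in Bone than in MatC, by 2.72 ± 0.67 (adjusted p = 0.0422), and higher in MatC than in ImC, by 3.75 ± 0.72 (adjusted p = 0.0152). These 2 calls lay close to the threshold. The difference between MatC and ImC was 3.79 but no longer called without the first ImC library (adjusted p = 0.0578, and 1.15e-06 to 0.0656 over all alternatives). The difference between Bone and MatC stayed between 2.59 and 3.22 but was no longer called without any 1 of the 3 Bone libraries, the first or second MatC library or the first ImC library (adjusted p = 0.0525 to 0.146, and 0.00031 to 0.146 over all alternatives).

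Across the 3 MatC libraries, the summed level of 11 osteoblast markers had the same order as Dcn. It was 80229 to 95637 CPM in Bone, 8411, 28474 and 1890 CPM in the 3 MatC libraries, and 524 to 583 CPM in ImC. The third MatC library was lowest of its group in this sum and in Dcn, and in Runx2, Col1a1, Col1a2, Ibsp, Dmp1 and Phex. Sp7, Alpl and Spp1 were instead lowest in the first MatC library, with 129, 113 and 66.9 CPM, against 198, 137 and 644 CPM in the third. Bglap and Bglap2 had no read in the third MatC library, and 1 and 0 reads in the first. Omd had 16.4, 15.4 and 0.849 CPM in the 3 MatC libraries, so the first was highest for Omd and the second for the sum. The part of osteoblast RNA in the Dcn and Omd levels of MatC was not tested.

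Bgn (ENSMUSG00000031375), on the X chromosome, encodes biglycan, the closest relative of decorin, which is needed for normal bone mass in mice. Bgn had 161, 196 and 173 CPM in Bone, 69.0, 134 and 18.4 CPM in MatC, and 101, 394 and 88.0 CPM in ImC. The Bone libraries were tightly grouped and all lay above MatC, whereas MatC and ImC overlapped each other and ImC spanned the Bone values. The log2 fold change was 1.25 ± 0.70 for Bone against MatC (adjusted p = 0.319), -1.39 ± 0.70 for MatC against ImC (adjusted p = 0.254) and -0.14 ± 0.69 for Bone against ImC (adjusted p = 0.897), and none was called. Without the second ImC library MatC against ImC was -0.35 and Bone against ImC changed sign, to 0.91. Without the second MatC library Bone against MatC was 2.01 and MatC against ImC was -2.14.

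The ratio of Dcn to Bgn reads separated the 3 tissues without overlap, and, as a ratio within a library, it does not depend on scaling. It was 1.31, 1.72 and 1.74 in Bone, 0.751, 0.504 and 0.446 in MatC, and 0.0345, 0.00340 and 0.0542 in ImC. Decorin reads thus outnumbered biglycan reads in every Bone library and in no cartilage library, although the 2 genes differ in length. The mean log2 ratio was 0.66 ± 0.23 in Bone, -0.86 ± 0.39 in MatC and -5.75 ± 2.14 in ImC (SD, n = 3 each). Each pair of tissues gave p = 0.1 by a two-sided exact permutation test, the smallest p that 3 against 3 libraries can give, and 0.12 after adjustment over 6 ratio comparisons.

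Aspn (ENSMUSG00000021388) encodes asporin, an aspartate-rich relative of decorin that binds collagen and calcium and restrains TGF-beta action in human chondrocytes. Aspn had 11.96, 51.7 and 48.5 CPM in Bone, 383, 50.6 and 76.9 CPM in MatC, and 12.7, 9.43 and 7.26 CPM in ImC. All MatC libraries lay above all ImC libraries, the first MatC library was highest of the 9, and Bone overlapped both cartilages. Aspn was higher in MatC than in ImC by 4.12 ± 0.83 on the log2 scale (adjusted p = 0.0184). The call ended without the first ImC library (adjusted p = 0.0621) or the second (adjusted p = 0.0537; 1.02e-06 to 0.0715 over all alternatives), and without the first MatC library the fold change was 2.70. Aspn was not called for Bone against MatC (-2.19 ± 0.76; adjusted p = 0.121; -0.75 without the first MatC library) or Bone against ImC (1.93 ± 0.76; adjusted p = 0.0769).

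Among the class II genes, Fmod (ENSMUSG00000041559) encodes fibromodulin, a keratan sulfate proteoglycan that binds type I and type II collagen. Fmod had 1.79, 1.80 and 5.24 CPM in Bone, 3.18, 16.6 and 11.03 CPM in MatC, and 232, 1092 and 57.5 CPM in ImC. Every ImC library lay above every Bone and MatC library, and the ImC libraries themselves spread from 57.5 to 1092 CPM. Fmod was lower in Bone than in ImC, at -7.28 ± 1.20 on the log2 scale (adjusted p = 0.00223), and lower in MatC than in ImC, at -5.49 ± 1.10 (adjusted p = 0.0181). Without the second ImC library these values were -5.60 and -3.82, and both were still called. Without the first MatC library the difference between MatC and ImC was not called (adjusted p = 0.0535, and 1.75e-08 to 0.0618 over all alternatives). Bone and MatC overlapped and were not called (-1.79 ± 0.97; adjusted p = 0.307), and this value ran from -2.49 without the third Bone library to -1.18 without the second MatC library.

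Lum (ENSMUSG00000036446) encodes lumican, which shares its collagen binding site with fibromodulin and is best known from the cornea. Lum had 199.6, 469 and 496 CPM in Bone, 668, 589.8 and 615 CPM in MatC, and 254, 33.7 and 79.0 CPM in ImC. MatC was narrowly grouped and lay above both other tissues, while Bone and ImC overlapped through the first ImC library. No comparison was called. The log2 fold change was 2.35 ± 0.65 for MatC against ImC (adjusted p = 0.0544), -0.68 ± 0.62 for Bone against MatC (adjusted p = 0.564) and 1.67 ± 0.64 for Bone against ImC (adjusted p = 0.0692). Without the first ImC library MatC against ImC was 3.45 (adjusted p = 0.0213, and 0.00225 to 0.191 over all alternatives) and Bone against ImC was 2.82 (adjusted p = 0.00975, and 0.00975 to 0.173), so both passed the threshold there.

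The ratio of Fmod to Lum reads was 0.00895, 0.00383 and 0.0106 in Bone, 0.00477, 0.0282 and 0.0179 in MatC, and 0.915, 32.4 and 0.728 in ImC. Every ImC library lay above every other library, and Bone and MatC overlapped. The two-sided exact permutation p was 0.1 for Bone against ImC and for MatC against ImC, the smallest the design allows, and 0.4 for Bone against MatC.

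Prelp (ENSMUSG00000041577) encodes a protein with a basic end that binds heparan sulfate and is thought to tie basement membranes to collagen. Prelp had 0.271, 0.685 and 1.30 CPM in Bone, 106, 88.3 and 199.7 CPM in MatC, and 160.4, 96.2 and 79.8 CPM in ImC. The Bone level rested on 36 reads over 3 libraries, all below every cartilage library, and the 2 cartilages overlapped. Prelp was lower in Bone than in MatC, at -7.43 ± 0.65 on the log2 scale (adjusted p = 0.000278), and lower than in ImC, at -7.20 ± 0.64 (adjusted p = 0.000129). Both calls held in each of the 18 alternatives. Without the third Bone library, where Prelp was highest among the Bone libraries, the values were -8.12 and -7.90. MatC against ImC gave 0.23 ± 0.47 (adjusted p = 0.81).

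Omd (ENSMUSG00000048368) encodes osteomodulin, also called osteoadherin, a keratan sulfate proteoglycan of bone that binds mineral and osteoblast integrins. Omd had 70.8, 80.5 and 72.3 CPM in Bone, 16.4, 15.4 and 0.849 CPM in MatC, and 3.08, 2.93 and 0 CPM in ImC. Bone was tightly grouped and lay above both cartilages, and the third MatC library, where 0.849 CPM was 3 reads, lay among the ImC values. In the third ImC library a count of 0 allows up to 0.214 CPM, counting 3 reads as the limit. Omd was higher in Bone than in ImC by 5.20 ± 1.12 on the log2 scale (adjusted p = 0.00755), a call that held in each of the 18 alternatives. It was not called for Bone against MatC (2.72 ± 0.99; adjusted p = 0.136) or for MatC against ImC (2.48 ± 1.02; adjusted p = 0.164). Without the third ImC library Bone against MatC passed the threshold at 2.71 (adjusted p = 0.0285, and 0.00653 to 0.313 over all alternatives).

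Among the class III genes, Epyc (ENSMUSG00000019936) encodes epiphycan, a dermatan sulfate proteoglycan first isolated from epiphyseal cartilage. Epyc had 0.433, 0.171 and 0.169 CPM in Bone, 193, 102 and 871 CPM in MatC, and 428, 16.7 and 214 CPM in ImC. The Bone level rested on 13 reads, and the 2 cartilages overlapped, with the highest value in the third MatC library and the lowest cartilage value in the second ImC library. Epyc was lower in Bone than in MatC, at -10.46 ± 1.51 on the log2 scale (adjusted p = 0.00413), and lower than in ImC, at -9.64 ± 1.47 (adjusted p = 0.00163). Without the third MatC library the first of these was -9.05, without the first ImC library the second was -8.69, and without the first Bone library they were -11.06 and -10.24. All of these remained called, whereas limma-voom in place of edgeR did not call Bone against MatC (adjusted p = 0.0663, and 1.29e-22 to 0.0663 over all alternatives). MatC against ImC gave 0.82 ± 0.97 (adjusted p = 0.647) and changed sign without the third MatC library, to -0.55, while without the first ImC library it was 1.75. Of the Epyc exon bases, 40.6% are shared with Gm10754 on the opposite strand, a gene with 0 reads in all 9 libraries. How reads on the shared bases were assigned is not known, so the 0 does not show that Epyc lost none.

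Ogn (ENSMUSG00000021390) encodes osteoglycin, also called mimecan, which affects collagen fibril width in mouse skin and cornea. Ogn had 28.2, 39.7 and 59.7 CPM in Bone, 284, 37.7 and 62.2 CPM in MatC, and 8.17, 16.7 and 7.12 CPM in ImC. Both Bone and MatC lay above ImC in every library, and they overlapped each other, with the first MatC library far above the rest. Ogn was higher in MatC than in ImC by 3.58 ± 0.74 on the log2 scale (adjusted p = 0.0202). The call ended without the first ImC library (adjusted p = 0.0817, and 6.61e-06 to 0.0932 over all alternatives), and without the first MatC library the fold change was 2.22. Bone against ImC gave 1.99 ± 0.70 and just missed the threshold (adjusted p = 0.0521, and 0.00396 to 0.148 over all alternatives). Bone against MatC gave -1.59 ± 0.68 (adjusted p = 0.199), and -0.21 without the first MatC library.

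The class IV gene Chad (ENSMUSG00000039084) encodes chondroadherin, a cartilage protein without a sulfated sugar chain of the decorin kind that binds collagen and chondrocyte integrins. Chad had 5.96, 10.5 and 6.36 CPM in Bone, 13.9, 7.97 and 20.6 CPM in MatC, and 58.0, 48.7 and 51.4 CPM in ImC. The ImC libraries were close together and lay above all 6 others, while Bone and MatC overlapped. Chad was lower in Bone than in ImC, with a log2 fold change of -2.79 ± 0.39 (adjusted p = 0.00103), a call that held in each of the 18 alternatives. It was lower in MatC than in ImC, at -1.91 ± 0.38 (adjusted p = 0.0172), but not called there without the first ImC library (adjusted p = 0.0652) or the first MatC library (adjusted p = 0.0505; 0.000255 to 0.0656 over all alternatives). Bone against MatC gave -0.88 ± 0.38 (adjusted p = 0.196).

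Levels of different genes were compared per kilobase of merged exons. On that scale Lum made up 50.0 ± 7.48% of the summed CPM per kb of the 10 genes in Bone, 45.3 ± 14.3% in MatC and 13.9 ± 10.3% in ImC (SD, n = 3 each). In Bone the next shares were those of Dcn, at 16.2 ± 2.22%, Omd, at 11.6 ± 3.89%, and Bgn, at 10.1 ± 3.03%. In MatC they were those of Epyc, at 22.7 ± 21.02%, and Aspn, at 11.2 ± 10.8%. In ImC Fmod held 30.8 ± 32.7% and Epyc 26.4 ± 21.7%, with SDs as large as the means or nearly so. Fmod took 68.4% in the second ImC library, whereas Epyc led in the first, at 37.4%, and in the third, at 40.4%. Lum led in all Bone libraries and in the first and second MatC libraries, and Epyc led in the third MatC library, at 47.0%. Without division by length the leading gene was the same in every library except the first Bone library, where Dcn led with 30.6% ahead of Lum with 28.8%. Merged exons include those of rare transcripts and amplification favours the 3′ ends of transcripts, so shares between genes are approximate.

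Of 30 comparisons of a gene's share between tissues, 19 did not overlap. The shares within a library add up to a fixed total and the comparisons share libraries, so the 30 are not independent. Shares were taken within the family only, so the 19 have no background over all tested genes. For CPM, 23.9% of all tested genes did not overlap in MatC against ImC, 35.6% in Bone against MatC and 59.0% in Bone against ImC. The smallest two-sided exact permutation p was 0.1, or 0.158 after adjustment over the 30, so no share difference could pass the threshold in this design. The Lum share did not overlap between MatC and ImC or between Bone and ImC, with 50.0% in Bone, 45.3% in MatC and 13.9% in ImC on average. The Omd and Dcn shares in Bone lay above those in both cartilages, at averages of 11.6% against 0.955% in MatC and 0.192% in ImC for Omd, and of 16.2% against 1.48% in MatC and 0.192% in ImC for Dcn.

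**Figure D3:**
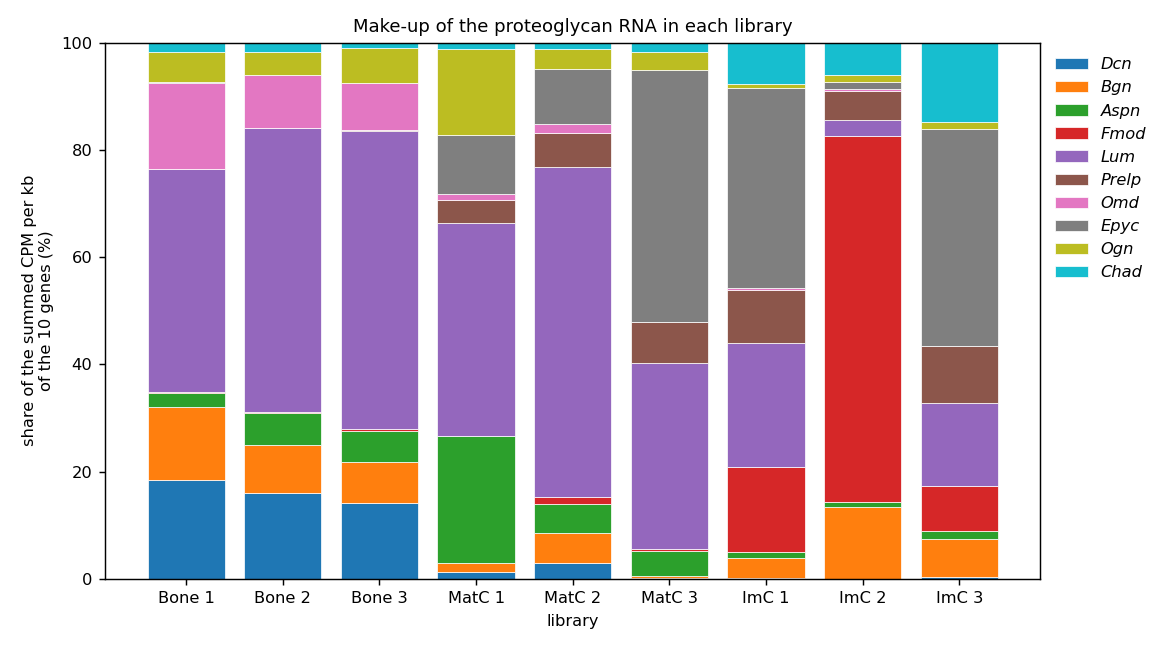
Share of each gene in the summed CPM per kb of the 10 genes (y axis, %) in each library, with Bone, MatC and ImC from left to right; each bar sums to 100%. Lum is the largest part of the 3 Bone bars and of the first 2 MatC bars, and Fmod takes 68.4% of the second ImC bar.

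Most of the family lies in groups of neighbouring genes. On chromosome 10 of GRCm38 (the build of mm10), Dcn (97479609 to 97518143), Lum (97565128 to 97572703), Kera and Epyc (97644068 to 97682454) lie in this order on the plus strand within 203 kb, with no other protein-coding gene between them. On chromosome 13, Ecm2, Aspn (49544443 to 49567565), Omd (49582462 to 49592822) and Ogn (49608046 to 49624501) lie on the plus strand within 119.7 kb, inside the span of Cenpp on the opposite strand. Cenpp had 603 reads in all 9 libraries together, and shares 7 exon bases with Aspn and 0 with Omd and Ogn. On chromosome 1, Optc, Prelp (133910304 to 133921414, minus strand) and Fmod (134037254 to 134048277, plus strand) lie within 151 kb. Chad (chromosome 11, 94565047 to 94569127) and Bgn (chromosome X, 73483602 to 73495933) lie apart.

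Neighbours differed in their distribution over the tissues. On chromosome 10, Dcn averaged 283 ± 64.7 CPM in Bone, 42.5 ± 30.7 CPM in MatC and 3.20 ± 1.73 CPM in ImC, whereas Epyc averaged 0.258 ± 0.152 CPM in Bone, 389 ± 420 CPM in MatC and 219.6 ± 206 CPM in ImC (SD, n = 3 each). Lum, between them, averaged 388 ± 164 CPM in Bone, 624 ± 40.0 CPM in MatC and 122 ± 116 CPM in ImC. Thus Dcn and Epyc had opposite signs in Bone against MatC and in Bone against ImC, with a call for each. On chromosome 13, Omd averaged 74.5 ± 5.23 CPM in Bone, 10.9 ± 8.71 CPM in MatC and 2.004 ± 1.74 CPM in ImC. Its neighbours had their highest means in MatC, with 37.4 ± 22.1 CPM in Bone, 170.1 ± 185 CPM in MatC and 9.79 ± 2.72 CPM in ImC for Aspn, and 42.6 ± 16.0 CPM in Bone, 128 ± 136 CPM in MatC and 10.7 ± 5.24 CPM in ImC for Ogn. These MatC means rested on the first MatC library. For both genes the second MatC library lay within the Bone range and the third lay above it, at 76.9 CPM for Aspn and 62.2 CPM for Ogn. On chromosome 1, Prelp and Fmod were both low in Bone and both high in ImC, and differed in MatC, where Prelp averaged 131 ± 59.8 CPM and Fmod 10.3 ± 6.76 CPM.

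**Figure D4:**
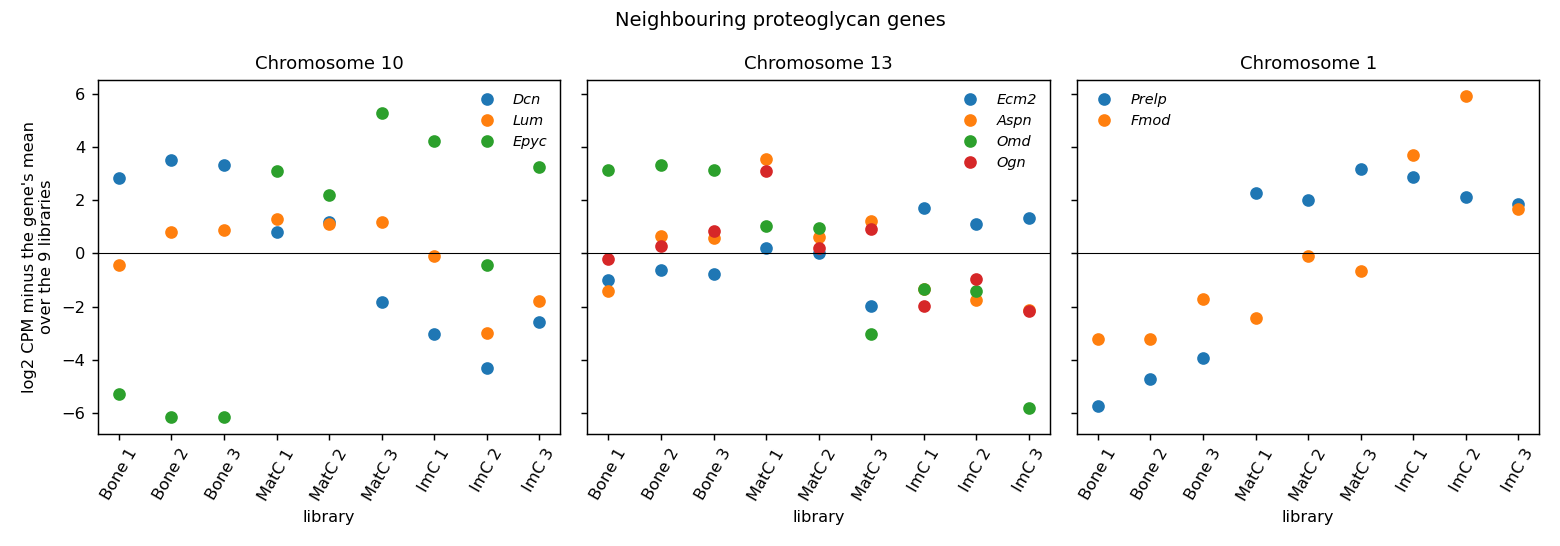
Log2 CPM of neighbouring genes minus each gene's mean over the 9 libraries (y axis), by library (x axis: Bone, MatC and ImC from left to right), with 1 panel for each chromosome and 1 point for each library. Dcn and Epyc lie on opposite sides of 0 in Bone, and Aspn and Ogn lie closer to each other than to Omd in the 3 Bone libraries.

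Promoter sequences are shown for the 3 chromosome 13 neighbours, because 2 of them moved together and the one between them did not, and for Epyc, which was near 0 in Bone. Each runs from 250 bases before to 50 bases after the transcription start, 5′ to 3′ on the strand of the gene (all plus), from RefSeq on GRCm38.p6, at chr13:49544193-49544492 for Aspn, chr13:49582212-49582511 for Omd, chr13:49607765-49608064 for Ogn and chr10:97643818-97644117 for the upstream start of Epyc. Capitals mark matches on either strand to 5 strings. These were TATAAA for a TATA box, TGTGGT for the core bound by RUNX factors, ACAAAG as the first SOX core and ACAATG as the other SOX core, and TGANTCA for AP-1.
Aspn: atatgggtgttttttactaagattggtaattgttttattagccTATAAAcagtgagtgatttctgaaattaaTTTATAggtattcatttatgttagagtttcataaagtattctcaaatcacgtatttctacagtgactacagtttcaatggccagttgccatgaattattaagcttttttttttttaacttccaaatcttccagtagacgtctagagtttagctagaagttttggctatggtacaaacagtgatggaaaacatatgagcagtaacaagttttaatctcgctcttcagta
Omd: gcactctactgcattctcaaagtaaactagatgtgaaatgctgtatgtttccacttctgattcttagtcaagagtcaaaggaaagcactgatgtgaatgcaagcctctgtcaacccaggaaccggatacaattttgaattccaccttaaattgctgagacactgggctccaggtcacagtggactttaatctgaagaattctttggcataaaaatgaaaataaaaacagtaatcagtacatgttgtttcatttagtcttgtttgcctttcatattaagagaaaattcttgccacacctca
Ogn: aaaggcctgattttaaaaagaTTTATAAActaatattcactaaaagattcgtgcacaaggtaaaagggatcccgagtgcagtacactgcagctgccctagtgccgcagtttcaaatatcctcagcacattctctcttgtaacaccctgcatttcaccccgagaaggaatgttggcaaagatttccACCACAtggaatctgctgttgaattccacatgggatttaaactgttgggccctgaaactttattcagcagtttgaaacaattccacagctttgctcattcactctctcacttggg
Epyc: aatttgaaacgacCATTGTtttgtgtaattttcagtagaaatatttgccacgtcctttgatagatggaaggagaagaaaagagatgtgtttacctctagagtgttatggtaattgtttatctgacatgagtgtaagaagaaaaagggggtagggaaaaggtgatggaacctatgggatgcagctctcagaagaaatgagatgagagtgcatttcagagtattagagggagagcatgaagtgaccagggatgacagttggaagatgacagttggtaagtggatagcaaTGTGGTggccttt

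A match is a string of letters and not a shown binding site. Of 32851 RefSeq promoters of this length, 13.6% held the TATA box string, 16.8% the RUNX core, 18.7% the first SOX core, 12.6% the other SOX core and 7.81% the AP-1 string. Aspn and Ogn both held TATAAA, on both strands: Aspn at -207 to -202 and, reversed, at -178 to -173, and Ogn at -227 to -222 overlapping a reversed match at -229 to -224, counted from the start site. Ogn also held a reversed TGTGGT at -65 to -60. None of the 5 strings was in the Omd window. The Epyc window held the other SOX core, reversed, at -237 to -232 and TGTGGT at 38 to 43 after the start. At a second RefSeq start of Epyc, the first SOX core lay at -147 to -142 and the other, reversed, at -209 to -204 and -202 to -197. Chad held TATAAA at -28 to -23. Prelp, Fmod and Bgn held none of the 5, and Dcn and Lum were not searched. In all, 8 of the 10 genes had a promoter entry.

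Likeness between genes was measured as the root mean square (RMS) difference of log2 CPM, centred on each gene's mean, over the 9 libraries and 9601 genes with a mean of at least 5 CPM. Of these genes, Ogn was closest to Aspn and Aspn was closest to Ogn, at an RMS difference of 0.60. Both were highest in the first MatC library, with 383 CPM for Aspn and 284 CPM for Ogn. Without that library the difference was 0.61, with Ogn the 5th closest gene to Aspn and Aspn the 82nd closest to Ogn. The next closest pairs among the 10 were Lum and Aspn, at 1.03, and Lum and Ogn, at 1.17. Prelp and Epyc differed by 1.59 and Dcn and Omd by 1.62.

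The nearest genes outside the family were mostly closer than any other family member. With only 10 members among the 9601 genes, that outcome was likely from the numbers alone. The closest other member ranked 1st for Ogn and Aspn, 17th for Epyc, 74th for Prelp and 8179th for Bgn, the lowest place of the 10. Bgn was closest to Cltb, at 0.33, and Zfp703, at 0.36. Chad was closest to Sulf2, a sulfatase of heparan sulfate, at 0.33, and BC039771, at 0.35. Omd was closest to Sytl4, at 0.41, and Rerg, at 0.59, and Lum to Lyn, a Src-family kinase, at 0.37, and Hecw2, at 0.46. Dcn was closest to Mob3b, at 0.57, and Cbr3, at 0.60. Prelp was closest to Col9a2, a type IX collagen chain of cartilage, at 0.70, and Foxa3, at 0.71. Epyc was closest to C1qtnf3, at 1.04, and Lect1, which encodes chondromodulin, at 1.09. Fmod was closest to Hoxd4, at 1.01, and Car9, at 1.05. For the second place, Ogn had Phldb2, at 0.67, and Aspn had Sgk1, at 0.86. All 9 libraries share these values, and 10 of the 20 named places were kept when the third MatC library was left out.

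The first MatC library and the second ImC library were highest of their groups in a sum of fibrous tissue genes. A list of 16 perichondrium, tendon and fibroblast genes summed to 378 to 808 CPM in Bone, to 1371, 504 and 505 CPM in MatC, and to 432, 789 and 64.7 CPM in ImC. The first MatC library, highest for Aspn and Ogn, was highest of all in this sum, and it had 37.7 CPM of the tendon gene Tnmd and 257 CPM of Postn. The second ImC library, highest for Fmod and Bgn and lowest of ImC for Epyc and Lum, had 627 CPM of Col3a1 and 15.2 CPM of Scx, and no read of Tnmd. By contrast, the third MatC library, highest of all for Epyc and Prelp, was level in this sum with the second MatC library. Col3a1 was the largest part of both leading sums, at 781 CPM in the first MatC library and 627 CPM in the second ImC library. Not all of the 16 genes were highest in these libraries. Within MatC, Thbs4 was highest in the third library and Tnxb in the second. Within ImC, Col14a1 and Mfap5 were highest in the third. The fibroblast markers Dpt, Dpp4, Pi16 and Ly6a were at 0.570 CPM or less in every library, and 0 to 5 of the 16 genes had no read in a given library. The part of such cells in the Aspn, Ogn, Fmod and Bgn levels was not tested.

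Other relatives were mostly low. Chadl, the chondroadherin-like gene, had 0.866, 0.257 and 0.676 CPM in Bone, 10.1, 9.52 and 7.64 CPM in MatC, and 28.2, 25.5 and 96.3 CPM in ImC. The 3 tissues did not overlap, and their means had the same order as those of Fmod and Chad. Chadl was called in all 3 comparisons, with log2 fold changes of -2.45 ± 0.55 for MatC against ImC (adjusted p = 0.0277), -3.86 ± 0.62 for Bone against MatC (adjusted p = 0.00761) and -6.31 ± 0.67 for Bone against ImC (adjusted p = 0.000255). The MatC against ImC call ended in 6 of 18 alternatives and the Bone against MatC call in 1. Of the 4 tested among 9 listed relatives, Chadl was thus the 1 lower in MatC against ImC, where 2.29% of all tested genes were lower, and the 1 lower in Bone against MatC, where 4.69% were. In Bone against ImC, Podnl1 was higher (3.17 ± 0.96; adjusted p = 0.0312), where 14.3% of all tested genes were. Chadl and Ecm2 (-2.37 ± 0.62; adjusted p = 0.0171) were lower there, as were 16.8% of all tested genes. The calls of Podnl1 and Ecm2 each ended in 5 of 18 alternatives.

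Several genes that make the sugar chains of the family were lower in Bone than in either cartilage. Of 28 tested genes of chondroitin and dermatan sulfate synthesis, Bone had 1 higher and 7 lower against MatC (1.36% and 4.69% of all tested genes), and 3 higher and 11 lower against ImC (14.3% and 16.8% of all tested genes). The 3 higher genes were thus no larger a share of the list than of all genes. Slc26a2, the sulfate transporter, averaged 63.1 ± 4.56 CPM in Bone, 333 ± 12.003 CPM in MatC and 788 ± 243 CPM in ImC. Its log2 fold change was -2.40 ± 0.31 in Bone against MatC (adjusted p = 0.00211) and -3.64 ± 0.32 in Bone against ImC (adjusted p = 0.000127). Csgalnact1, which starts chondroitin chains, averaged 10.6 ± 1.65 CPM in Bone, 98.6 ± 42.8 CPM in MatC and 168 ± 21.9 CPM in ImC. Its log2 fold change was -3.22 ± 0.38 in Bone against MatC (adjusted p = 0.00151) and -3.99 ± 0.39 in Bone against ImC (adjusted p = 0.000205). The nucleotide-sugar transporter Slc35d1 fell in Bone by similar amounts, at -3.51 ± 0.48 against MatC (adjusted p = 0.00294) and -3.91 ± 0.49 against ImC (adjusted p = 0.000616), as did the chain-initiating Xylt1, at -3.64 ± 0.60 (adjusted p = 0.00823) and -4.76 ± 0.61 (adjusted p = 0.00072). The calls of these 4 genes against MatC ended in 1 or 2 of 18 alternatives each, and those against ImC in none. Between MatC and ImC, 2 of the 28 were higher (Chst13 and Chst15; 5.41% of all tested genes) and 2 lower (Pxylp1 and Slc26a2; 2.29% of all tested genes), and each of these 4 calls ended in 8 or more of the alternatives tried. Of 9 tested genes of keratan sulfate chains and tyrosine sulfation, 1 was higher in MatC than in ImC (5.41% of all tested genes). This was Chst1, a keratan sulfate sulfotransferase (3.03 ± 0.61; adjusted p = 0.0186; not called in 4 of 18 alternatives). In Bone against ImC 1 was lower, no larger a share of the list than of all tested genes (16.8%). This was Tpst1, a tyrosine sulfotransferase (-2.55 ± 0.62; adjusted p = 0.0127; not called in 3 of 18).

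Among 16 tested collagens to which the family binds, Bone had 4 lower against MatC (4.69% of all tested genes), and 3 higher and 6 lower against ImC (14.3% and 16.8% of all tested genes). Col2a1 was lower in Bone than in MatC (-3.98 ± 0.47; adjusted p = 0.00151) and than in ImC (-4.29 ± 0.48; adjusted p = 0.000329), and the type IX chain Col9a3 averaged 2.54 ± 0.717 CPM in Bone, 1499 ± 558 CPM in MatC and 2270.3 ± 341 CPM in ImC. In MatC against ImC, where 5.41% of all tested genes were higher, 2 collagens were, Col5a2 (4.25 ± 0.88; adjusted p = 0.0202) and Col1a2 (4.18 ± 0.98; adjusted p = 0.0324), of which Col1a2 overlapped between the groups. Col5a2 was not called in 4 of 18 alternatives and Col1a2 in 12. Of 17 tested growth factors and receptors reported to bind the family, 5 were higher in MatC than in ImC (5.41% of all tested genes). Bone had 1 higher and 2 lower against MatC (1.36% and 4.69% of all tested genes), and 5 higher and 1 lower against ImC (14.3% and 16.8% of all tested genes). The 5 higher in MatC included Kdr, an endothelial receptor, with 19.6, 38.8 and 1.41 CPM in MatC and at most 0.356 CPM in ImC. A list of 10 endothelial markers, Kdr among them, summed to 110, 277 and 23.5 CPM in MatC and to 6.50, 4.57 and 25.8 CPM in ImC, and the part of endothelial RNA in the Kdr difference was not tested. Bmp4 averaged 26.3 ± 7.68 CPM in Bone, 5.05 ± 2.45 CPM in MatC and 0.976 ± 0.424 CPM in ImC, and was called in all 3 comparisons, although the call ended in 4 of 18 alternatives for MatC against ImC and in 3 for Bone against MatC. Tgfb1, a ligand that decorin binds, had 642 reads in Bone, 185 in MatC and 4 in ImC.

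Of 10 tested genes of a list of proteases reported to cleave the family, which also holds the proteinase enhancer Pcolce, 2 were higher in MatC than in ImC, Mmp13 and Ctsk, against 5.41% of all tested genes. In Bone against ImC, 4 were higher, Mmp13, Mmp14, Adamts4 and Ctsk, against 14.3% of all tested genes. Mmp14 was not called in 7 of 18 alternatives. Mmp13, a collagenase of hypertrophic cartilage and bone, had 1497 reads in Bone, 958 in MatC and 1 in ImC. Ctsk, the cathepsin of osteoclasts, averaged 349 ± 80.6 CPM in Bone, 85.0 ± 86.1 CPM in MatC and 3.18 ± 1.44 CPM in ImC. Its difference between MatC and ImC (4.74 ± 1.12; adjusted p = 0.0332) overlapped and was not called in 11 of 18 alternatives, while that between Bone and ImC (6.77 ± 1.23; adjusted p = 0.00358) was called in all 18. The other 8 osteoclast markers listed summed to 233 to 676 CPM in Bone, 21.7, 426 and 32.5 CPM in MatC, and 1.79 to 7.34 CPM in ImC. Ctsk had 79.7, 174 and 1.70 CPM in the 3 MatC libraries, so its order there was not that of the other markers in the first MatC library and the third. The part of osteoclast RNA in the Ctsk differences was not tested.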

How the data were processed

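RNA-seq libraries of bone, mature cartilage and immature cartilage, 3 each, were analysed from the raw count table the authors deposited, in whole reads per gene. The submitters' processing notes name Trimmomatic 0.30, TopHat2, Bowtie2, HTSeq, edgeR and build mm10; their settings, strand setting and annotation are not given in the sources used here. A second deposited table, of normalized values treated as a score because the authors' scaling is not stated, was used only to recover scaling factors for 1 alternative.

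Counts were filtered with filterByExpr (minimum count 10), scaled by TMM and fitted over all 9 libraries with edgeR 4.0.16 (R 4.3.3) quasi-likelihood tests, with Benjamini-Hochberg adjustment over 14257 genes. The fit was tested on simulated data. DESeq2 1.42.0 and limma 3.58.1 (voom) were alternatives. No 2 replicates agreed within sampling noise. Limits from a count of 0 cover counting error only. Exon lengths and gene positions came from GENCODE M21 and promoters from RefSeq. Shares and ratios were compared by exact permutation tests (SciPy 1.17.1).

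The 10 genes and all lists were chosen with earlier results of these data known. Named genes were the 10 members, up to 4 called genes of each list and comparison with the smallest p, and the 2 genes most like each member; Kera was chosen after its values were seen.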

Additional observations from a re-analysis of the deposited data

How the results depend on the processing

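Of the fold changes of the 10 genes recomputed under 18 alternatives, 480 kept their direction and their side of the threshold, 24 lost a call, 26 gained one and 10 changed sign. The calls of Dcn, Fmod, Prelp, Epyc, Omd and Chad in Bone against ImC, and of Prelp in Bone against MatC, held in every alternative. In MatC against ImC, library size alone gave 0 of the 10 genes higher, and 191 higher and 167 lower among all genes; no filter gave 5, with 1225 higher among all; fitting only the 2 groups gave 1 higher and 0 lower, and 157 and 48 among all; DESeq2 gave 1456 and 808 among all, and a replicate block 191 lower. In Bone against MatC, library size alone gave 0 higher, and 119 and 178 among all; no filter gave 2, with 445 and 1059 among all; the 2 groups alone gave 2, with 442 higher among all; DESeq2 gave 622 and 1335 among all; limma-voom gave 1 lower, with 426 lower among all. In Bone against ImC, no filter gave 5 higher, the 2 groups alone 4 and DESeq2 5, and library size alone gave 1224 higher and 849 lower among all genes. The cause of these shifts was not tested.

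Leaving out 1 library gave 1 to 3 of the 10 higher and 0 to 2 lower in MatC against ImC, with 267 to 949 and 88 to 342 among all genes. It gave 0 to 2 higher and 2 lower in Bone against MatC, with 14 to 542 and 153 to 1160 among all, and 2 to 4 higher and 4 lower in Bone against ImC, with 1222 to 2618 and 1121 to 2790 among all. Under library size alone the median of all genes shifted by -0.54 in MatC against ImC, 0.98 in Bone against MatC and 0.48 in Bone against ImC, and the share of calls that were higher was 53.4% in place of 70.2%, 40.1% in place of 22.5% and 59.0% in place of 46.0%. In Bone against MatC that share was also 40.0% with limma-voom and 36.7% with the 2 groups alone. Sign changes under library size alone were those of Prelp (-0.51) and Epyc (-0.16) in MatC against ImC, of Lum (0.29) and Chad (0.21) in Bone against MatC, and of Bgn (0.19) in Bone against ImC. Bgn there was also positive with the replicate block (0.30) and limma-voom (0.20), and ranged from -0.48 to 0.91 over libraries left out. Prelp ranged from -0.18 to 0.57 and Epyc from -0.55 to 1.75 in MatC against ImC. None of these was called.

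Whether replicate numbers pair the samples could not be settled with 3 libraries a group. Over 9 pairs of same-numbered libraries, deviations from the group means correlated at -0.13 to 0.24. The 2 values over 0.1 were MatC with ImC, at 0.23 for replicate 1 and 0.24 for replicate 3. In 6 of 18 comparisons of a library with another group, the library matched best with its own number. The replicate block ended the calls of Ogn in MatC against ImC (adjusted p = 0.051) and of Dcn in Bone against MatC (adjusted p = 0.0597), which left 0 of the 10 genes higher there. Shares do not depend on library scaling by construction. With a minimum mean of 1 CPM, 19 of the 20 most alike genes were kept. The third MatC library sets the depth limit, with 3 reads worth 0.849 CPM. The comparison without the first MatC library for Aspn and Ogn was chosen after seeing the data.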

Other observations

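Kera, which encodes keratocan, a class II keratan sulfate proteoglycan between Lum and Epyc on chromosome 10, did not pass the filter on low counts. It had 4, 0 and 485 reads in the 3 Bone libraries, 19, 1 and 0 reads in the MatC libraries and 1, 1 and 0 reads in the ImC libraries. The 485 reads were 27.3 CPM in the third Bone library, against at most 0.217 CPM in the other Bone libraries. Its neighbour Lum had 199.6, 469 and 496 CPM in the 3 Bone libraries. Several muscle and tendon genes were also highest in the third Bone library among Bone. It had 25.5 CPM of Myh3 against 0.271 and 0.0856 CPM in the others, and 11.2 CPM of Acta1 against 1.14 and 0 CPM. It also had 9.80 CPM of Thbs4 against 0.325 and 0.428 CPM, and 1.91 CPM of Scx against 0.108 and 0.171 CPM. The tendon gene Tnmd was not highest there, with 0.507 CPM against 0.596 and 0.0856 CPM. A list of 10 skeletal muscle markers summed to 77.8 CPM there, against 10.1 and 3.60 CPM in the other Bone libraries and 28.8, 299 and 72.4 CPM in the MatC libraries. The part of such RNA in the Kera reads was not tested.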
